A study of Mus musculus with 375 samples.

Results

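MHC class II molecules present peptides to CD4+ T cells. The 6 transcripts described here encode the parts of that machinery: the classical chains H2-Aa, H2-Ab1 and H2-Eb1, the invariant chain Cd74, and H2-DMa and H2-DMb1, the chains of the peptide editor H2-DM. They were taken by name from a table of 23420 genes and read in single cells, to ask which of them occurred together in a cell and how complete the set was. Mice had been fed a high-fat diet (abbreviated HFD) or a control diet, Lgr5+ stem cells of the small intestine were sorted from them, and each cell was sequenced on its own with Smart-seq2, in which cDNA covers whole transcripts. Column names placed them in 4 sets, with 93 cells in control 1, 91 in control 2, 91 in HFD 1 and 92 in HFD 2 after cells with fewer than 2000 detected genes were left out. The labels do not give strain, age or length of feeding. Whether a set is 1 mouse or several is also unstated, and p-values here measure only the spread between the sets, which may be technical.

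In the usual account of the pathway, an alpha and a beta chain pair in the endoplasmic reticulum around Cd74, which fills the groove and carries the dimer to endosomes. There Cd74 is cut down to a fragment, and H2-DM exchanges that fragment for antigen peptides. H2-Aa and H2-Ab1 form the I-A dimer, and H2-Eb1 is the beta chain of I-E. Transcription of all these genes is known to depend on the co-activator Ciita, which is recruited to short promoter elements called the X box and the Y box. Intestinal epithelial cells, crypt stem cells among them, can carry class II although they are not professional antigen-presenting cells.

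Promoters are shown because class II genes are known to share promoter elements. Whether these elements bear on the levels in these cells was not tested. RefSeq's promoter table (GRCm38.p6, 250 bases before to 50 after each start site) matched 4 of the 6 members, and the start sites of H2-Ab1 and Cd74 had no match. The letters searched, on both strands, were CCNAGNN followed directly by ACNGATG for the X box, a shorter form without its first 3 letters, GATTGG for the Y box and its inner 5 letters ATTGG. In the stretches below, read on each gene's own strand, capitals mark every match. H2-Eb1 is from chr17:34305737-34305841 (+), H2-Aa from chr17:34287849-34287953 (−), and H2-DMb1 is the stretch around the X box only, chr17:34153085-34153114 (+).
H2-Eb1: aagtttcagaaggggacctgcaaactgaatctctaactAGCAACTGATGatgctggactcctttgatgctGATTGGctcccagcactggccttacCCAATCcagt
H2-Aa: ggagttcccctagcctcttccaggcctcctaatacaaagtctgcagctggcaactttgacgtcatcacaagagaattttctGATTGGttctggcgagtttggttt
H2-DMb1: gaggtttaCCTAGTAACTGATGatgctagg

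H2-DMb1 held the long X box form, which 20 of 32817 promoters in the table held (0.0609%), with a Y box 62 bases before the start. The start here is that of RefSeq. GENCODE starts H2-DMb1 at 34153072, before the stretch shown, and so counts that stretch as transcribed. H2-Eb1 held the short form 92 bases before its start and the Y box at 60 bases before, with a further Y box on the other strand. The short X box occurred in 0.969% of all promoters in the table, GATTGG in 16.1%, ATTGG in 37.4%, and the short X box together with ATTGG in 0.387%. Counted from the inner X box letters ACNGATG, a form chosen after the sequences were seen and present in 9.85% of promoters, the Y box began 29 bases further on in H2-DMb1 and 28 bases further on in H2-Eb1. The arrangement was not particular to the members. H2-DMb2 and H2-Eb2, neighbours detected in few cells, had the same spacings of 29 and 28 bases. H2-Eb2 also held the short X box, as did H2-Oa, which was listed at 0 in every cell. H2-Aa held the Y box 49 bases before its start and no X box of these letters on its own strand. H2-DMa has 2 start sites in the table. GATTGG was present before the second of them, and neither held an X box of these letters. Both searched stretches, 34122582 to 34122881 and 34125268 to 34125567, lie inside the GENCODE model of H2-DMa, which begins at 34119541. Any other start site of H2-DMa was not searched. A match is a description of letters, and binding was not measured.

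Before the class II values, the sort and the sets were checked. Cells with at least 3 of 8 stem cell markers at 10 TPM or above numbered 93 in control 1, 91 in control 2, 90 in HFD 1 and 92 in HFD 2, which is every cell but 1. The leukocyte markers Ptprc, Laptm5, Cd52 and Coro1a were listed at 0 in every cell of 3 sets, and 2 cells of HFD 2 had one of them at 10 TPM or more. B cell, T cell and dendritic cell or macrophage lists each summed to means of 0.0931 to 3.004 TPM per set, and no cell held 3 markers of any of these lists at 10 TPM. Paneth markers, in contrast, summed to 65.2, 32.3, 4711 and 459.5 TPM and goblet markers to 401, 71.5, 531 and 469 TPM, so both lists were higher in the HFD sets; their part in the class II differences is shown only by the values without such cells given below. The median cell had 6895, 6130, 6857 and 6348.5 detected genes, and ribosomal RNA precursor (Rn45s) made up 39.1, 24.6, 26.9 and 18.6% of TPM.

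Mean levels of all 6 class II transcripts were lower in both HFD sets than in both control sets. TPM, an abundance within each cell, is scaled by transcript length, so levels can be compared between genes. H2-Ab1, the beta chain of I-A, averaged 328.6, 322.8, 76.6 and 154.7 TPM in control 1, control 2, HFD 1 and HFD 2. H2-Aa, its alpha chain partner, averaged 176.4, 213.8, 28.2 and 74.6 TPM. H2-Eb1, the I-E beta chain, averaged 137.99, 160.6, 37.5 and 72.4 TPM. For each of the 3 chains HFD 1 was the lowest set and HFD 2 the next. Cd74 was the most abundant member in every set, at 494.8, 461.3, 198.3 and 169.7 TPM. The 2 chains of H2-DM were the least abundant in every set: H2-DMa stood at 57.7, 56.8, 20.98 and 24.1 TPM and H2-DMb1 at 35.2, 46.2, 10.5 and 16.4 TPM. No HFD set overlapped a control set for any of the 6, and 1431 of 11667 tested genes (12.3%) also had both HFD sets below both control sets.

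By limma on log2(set mean TPM + 1), with Benjamini-Hochberg adjustment over all 11667 tested genes, all 6 members were called lower at a threshold of 0.05, against 16 genes called lower in the whole table (0.137%) and 59 called in either direction (0.506%). The log2 fold change was −2.06 for H2-Aa (SE 0.32, limma adjusted p = 0.000704), −1.57 for H2-Ab1 (SE 0.29, 0.00648), −1.49 for H2-Eb1 (SE 0.28, 0.007), −1.38 for Cd74 (SE 0.26, 0.00888), −1.31 for H2-DMa (SE 0.25, 0.0104) and −1.55 for H2-DMb1 (SE 0.29, 0.00757). Their median was −1.52, and that of all tested genes was 0.13. All 6 fold changes were negative in each of the 18 other settings. Dropping the filter on low genes, dropping the trend or adding the set number as a block cannot change a fold change. The limma calls were lost in several settings: leaving Rn45s out of the total, which moved the median of all genes to −0.05, left 0 of 6 called (log2 fold changes −1.49 to −2.22, adjusted p = 0.0612 to 0.112), as did leaving out cells with 3 or more Paneth or goblet markers (−1.23 to −1.97, adjusted p = 0.0621 to 0.142), limma without a trend (adjusted p = 0.203 to 0.267), keeping every cell (0.0705 to 0.101), the interquartile range of genes per cell (−0.8 to −2.21, adjusted p = 0.0628 to 0.697) and no filter on low genes (adjusted p = 0.668). Leaving out cells with any immune marker at 10 TPM left 1 member called, as did leaving out the HFD 1 set, while without HFD 2 all but Cd74 (adjusted p = 0.338) were called, with the lone set assumed to vary like the others; the H2-Aa fold change was −1.37 without HFD 1 and −2.74 without HFD 2.

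**Figure D1:**
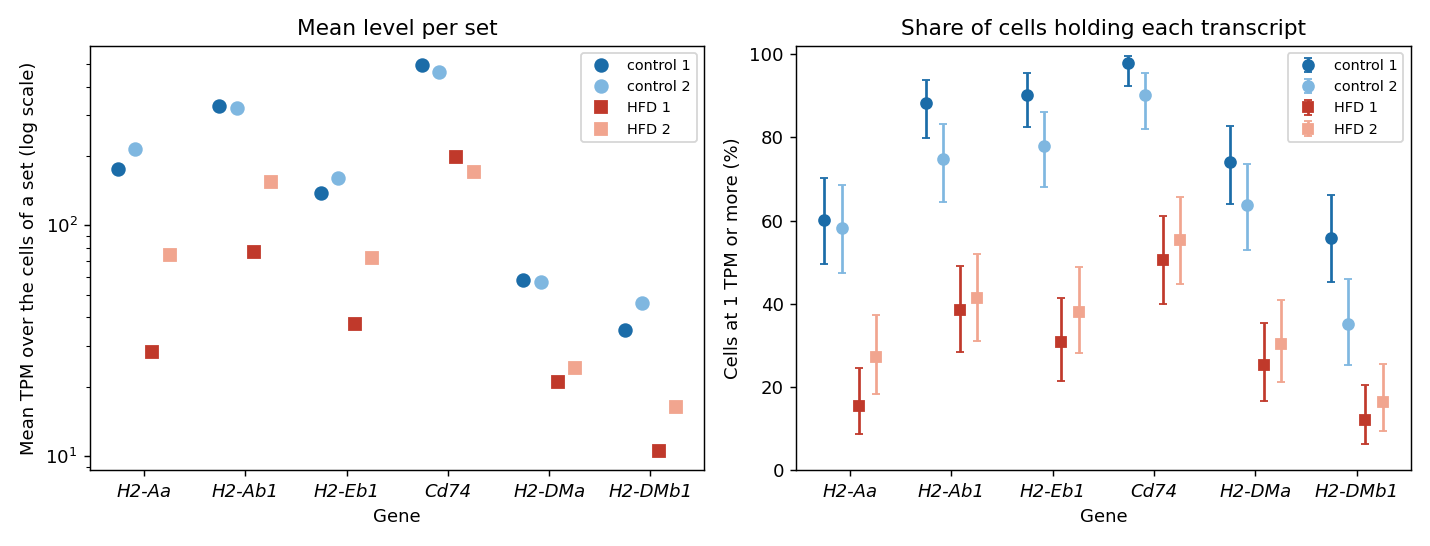
Left, mean TPM of each class II gene over the cells of a set, on a log axis; right, the percentage of cells at 1 TPM or more with 95% Clopper-Pearson intervals (counting error only). Circles are control sets and squares HFD sets, and for every gene both squares lie below both circles on both axes.

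A transcript counted as held in a cell from 1 TPM upwards; only 2 of all member values lay between 0 and 1 TPM. H2-Eb1 was held by 90.3 and 78% of control cells and by 30.8 and 38% of HFD cells. H2-DMa was held by 74.2 and 63.7% against 25.3 and 30.4%, and H2-DMb1 by 55.9 and 35.2% against 12.1 and 16.3%. The shares for H2-Ab1 (88.2, 74.7, 38.5 and 41.3%), H2-Aa (60.2, 58.2, 15.4 and 27.2%) and Cd74 (97.8, 90.1, 50.5 and 55.4%) likewise did not overlap between the diets. In percentage points HFD minus control was −49.75 for H2-Eb1 (spread between sets of one diet, as a pooled SD, 7.13), −41.55 for H2-Ab1 (6.89), −41.1 for H2-DMa (5.84), −41.0 for Cd74 (4.56), −37.9 for H2-Aa (5.98) and −31.35 for H2-DMb1 (10.6). Ranked over 11667 genes by the fall in share, these took places 1 to 6, in the order given; the median gene differed by 0.

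Among cells that held a transcript, mean log2 TPM overlapped between the diets for every member but Cd74. Median TPM in holding cells was 97.4, 111.5, 94.4 and 93.6 for H2-Eb1, close together in all 4 sets. For H2-DMb1 the medians were 51.9, 99.3, 49.4 and 100.7 TPM, so the sets numbered 1 were alike and the sets numbered 2 were alike, whatever the diet. H2-DMa had 47.9, 78.7, 43.4 and 61.2 TPM, H2-Ab1 181.8, 289.4, 117.2 and 233.3, and H2-Aa 145.1, 234.97, 99.02 and 125.4. The H2-Aa medians of both HFD sets were below those of both control sets, though its mean log2 values overlapped. Cells that held Cd74 had medians of 341.7 TPM in control 1, 364.9 in control 2, 190 in HFD 1 and 174.96 in HFD 2. The Cd74 mean log2 TPM in holding cells differed by −0.922 with a spread of 0.366. Averaged over the 6 members, mean log2 TPM in holding cells was 6.541, 7.223, 6.422 and 6.626, a difference of −0.358 against a spread of 0.356 (exact two-sided permutation p = 0.667). That value rested on single sets, being −0.699 without control 1 and −0.0169 without control 2, and was −0.547 with Rn45s left out of the total.

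For every member, the highest cells carried a larger part of the total in the HFD sets, where fewer cells held it. The tenth of cells with the highest values carried 38.9% of all Cd74 TPM in control 1, 36.1% in control 2, 60.1% in HFD 1 and 61% in HFD 2. For H2-Aa those shares were 59.6 and 48.8% against 94.4 and 81%, and for H2-DMb1 43.3 and 62.5% against 99.1 and 89.8%. Only 11 of 91 cells held H2-DMb1 in HFD 1.

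Control cells most often held 5 or 6 of the transcripts, and HFD cells 0 or 1. Control 1 cells held 4.67 of the 6 on average, control 2 cells 4.0, HFD 1 cells 1.73 and HFD 2 cells 2.09. The difference was −2.43 transcripts per cell with a spread of 0.379. All 6 were held by 33.3% of control 1 cells (31 of 93; 95% Clopper-Pearson interval 23.9 to 43.9%), 26.4% of control 2 cells (24 of 91; 17.7 to 36.7%), 3.30% of HFD 1 cells (3 of 91; 0.685 to 9.33%) and 4.35% of HFD 2 cells (4 of 92; 1.20 to 10.8%). HFD minus control was −26.03 percentage points, with a spread of 3.52. None of the 6 was held by 1.08, 3.30, 39.6 and 28.3% of cells, a difference of 31.7 points with a spread of 5.76. Exact permutation of the set labels (two-sided) gave p = 0.333 for each of these differences, the smallest value that 2 sets against 2 can give.

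**Figure D2:**
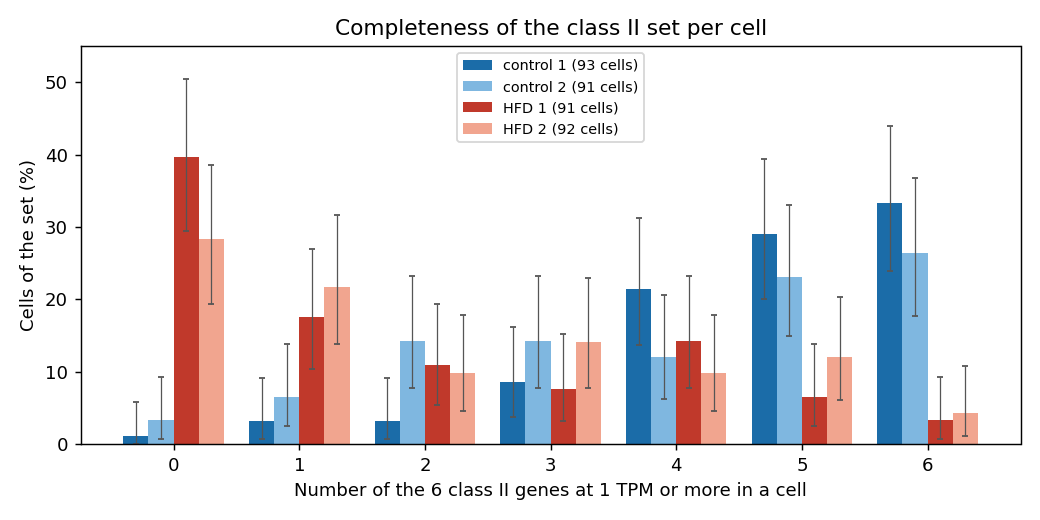
Percentage of the cells of each set (vertical axis) by how many of the 6 class II genes they held at 1 TPM or more (horizontal axis); bars are sets and whiskers 95% Clopper-Pearson intervals. Control sets peak at 6 genes (33.3 and 26.4%) and HFD sets at 0 genes (39.6 and 28.3%).

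Empty cells had a higher median of detected genes than complete cells in HFD 1 and a lower one in HFD 2, with few complete cells in either. In HFD 1 the 36 cells with none of the 6 had a median of 7045.5 genes, and the 3 complete cells 6753. In HFD 2 the medians were 6397 and 6529.5 genes for 26 and 4 cells. Across the cells of a set, the number held and the number of genes detected had Spearman's rho of 0.29, −0.061, −0.238 and −0.019 in the 4 sets in turn, as a description over 91 to 93 cells that share a set and a gene count. With Lgr5, the stem cell receptor used for the sort, rho was −0.167, 0.04, 0.031 and −0.019. With Rn45s it was −0.299, −0.085, 0.305 and 0.207, negative in the control sets and positive in the HFD sets, and with the proliferation marker Mki67 0.298, −0.163, −0.154 and 0.019. The 62 complete cells had Ptprc listed at 0. Cells with 3 or more Paneth or goblet markers numbered 9, 6, 28 and 19, and held 4.44, 3.17, 1.86 and 1.0 members on average; all other cells held 4.69, 4.06, 1.67 and 2.37, and both HFD sets were below both control sets without them too. Single-cell cDNA misses transcripts and TPM keeps no read depth, so a cell counted without a transcript is one where it was not detected.

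Of the 64 possible combinations of 6 transcripts, 35 were seen. The most frequent were none of the 6 (66 cells), all 6 (62), all but H2-DMb1 (44), the set of H2-Ab1, H2-Eb1, Cd74 and H2-DMa (23) and Cd74 alone (22). The complete cell was the most frequent state in both control sets and the empty cell in both HFD sets. Of the 66 empty cells 62 were on the HFD, and of the 62 complete cells 55 were on the control diet. If the 6 were held independently at their own shares, all 6 would meet in 19, 6.9, 0.028 and 0.12% of cells, compared with the 33.3, 26.4, 3.30 and 4.35% measured. Empty cells would make up 0.0011, 0.054, 12 and 6.9%, compared with 1.08, 3.30, 39.6 and 28.3%. Both ends of the distribution were therefore fuller than the product of the shares in every set.

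**Figure D3:**
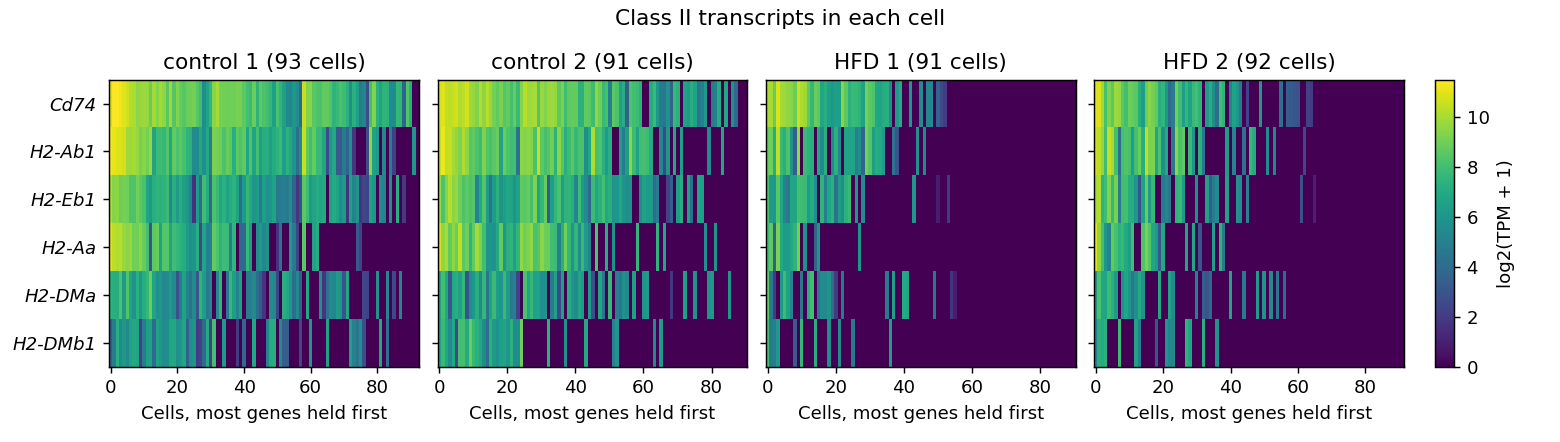
Level of each class II gene, as log2(TPM + 1), in every cell; each column is a cell, sorted within its set from 6 genes held to 0. Complete cells at the left number 31 and 24 on the control diet and 3 and 4 on the HFD, and the dark blocks at the right include 36 and 26 empty HFD cells.

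Cells with 1 transcript and cells lacking 1 were made up differently. Of the 45 cells with exactly 1 member, 22 held Cd74 (6 control and 16 HFD cells), 10 held H2-DMa (1 and 9), 9 held H2-Ab1 (2 and 7) and 4 held H2-Eb1 (0 and 4). H2-Aa and H2-DMb1 were never found alone. Of the 65 cells with exactly 5 members, 44 lacked H2-DMb1, 12 lacked H2-DMa and 9 lacked H2-Aa, while none lacked H2-Ab1, H2-Eb1 or Cd74. The 2 never seen alone, H2-DMb1 and H2-Aa, were also those held by the fewest cells in every set.

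Cd74, the chaperone of the nascent dimer, accompanied the chains in most cells, and was itself held by 97.8, 90.1, 50.5 and 55.4% of all cells. Every cell with H2-Aa also held Cd74, in 56 and 53 control cells and 14 and 25 HFD cells. These were 60.2, 58.2, 15.4 and 27.2% of cells, against products of the 2 shares of 58.9, 52.5, 7.78 and 15.1%. Of the cells with any of the 3 chains, 1 of 88, 5 of 80, 5 of 41 and 10 of 52 lacked it (1.14, 6.25, 12.2 and 19.2%). The reverse was looser: Cd74 stood without any of the other 5 in 2, 4, 8 and 8 cells. Cells with Cd74 held 3.76, 3.29, 2.20 and 2.39 of the other 5, a difference of −1.23 between the diets with a spread of 0.253 (exact two-sided permutation p = 0.333). Cells without Cd74 held 0.5, 1.33, 0.222 and 0.463 of them, from 2, 9, 45 and 41 cells.

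The Cd74 level went with the number of other members in the cell. Among cells that held Cd74, its median was 191.4, 82.2, 75.5 and 19.4 TPM with 0 or 1 others, 199.9, 193.3, 205.1 and 174.96 TPM with 2 or 3, and 491.2, 727.2, 898.0 and 434.1 TPM with 4 or 5. In cells with 4 or 5 others, the HFD sets lay on both sides of the control sets, from 9 and 15 cells. Complete cells had Cd74 medians of 728.8, 875.8, 1035 and 1432 TPM and summed class II medians of 1626, 2251, 2069 and 3996 TPM, with only 3 and 4 cells behind the HFD values. Within classes of Cd74 level, chosen after seeing the data, HFD cells held fewer of the other 5. In cells with Cd74 at 500 TPM or more, whose median Cd74 was 792.9, 904, 954.1 and 828.6 TPM, control 1 and control 2 held 4.44 and 4.52, and HFD 1 and HFD 2 held 3.5 and 3.89; the HFD mean differed by −0.785, with 0.199 as the spread. Between 100 and 500 TPM (medians 270.2, 255.5, 205.1 and 254.8 TPM) the numbers were 3.42, 3.12, 2.15 and 2.82, a difference of −0.785 with a spread of 0.367. Between 1 and 100 TPM (medians 47.2, 31.2, 58.5 and 21.9 TPM) they were 3.31, 1.5, 1.14 and 1.25, where control 1 stood apart and the difference of −1.21 had a spread of 0.907.

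**Figure D4:**
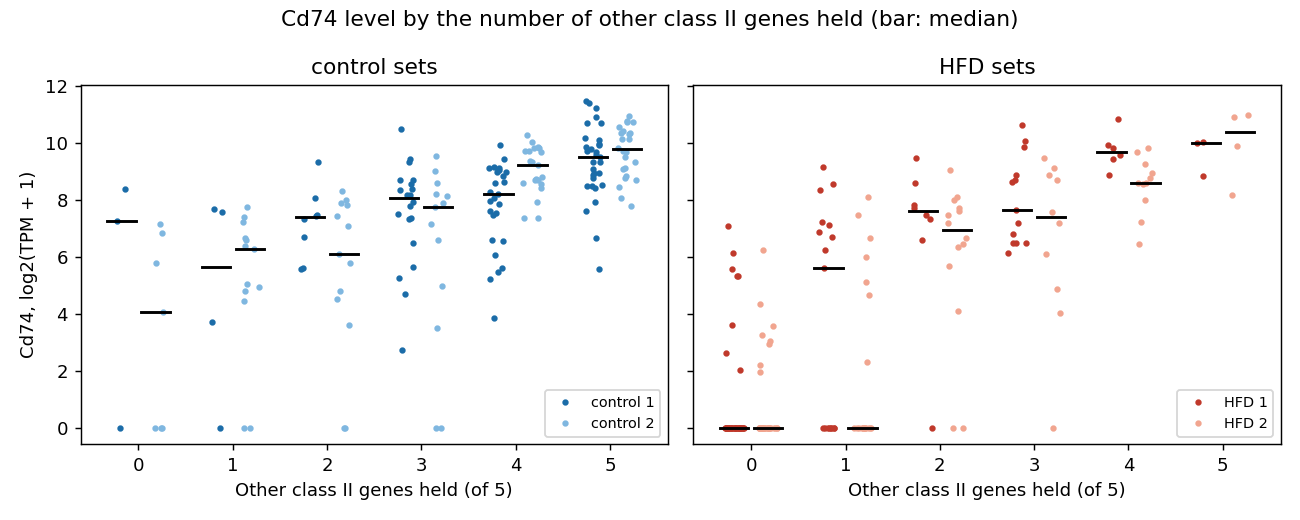
Cd74 level, as log2(TPM + 1), in each cell (points) against the number of the other 5 class II genes that the cell held, with control sets on the left and HFD sets on the right; bars are medians per set, cells at 0 included. Among cells that held Cd74, those with 4 or 5 others had medians of 491.2 and 727.2 TPM (control) and 898.0 and 434.1 TPM (HFD).

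The I-A chains were unequal partners. Both H2-Aa and H2-Ab1 were held by 58.1, 53.8, 14.3 and 22.8% of cells, the HFD mean differing by −37.4 points with a spread of 4.76 (exact two-sided permutation p = 0.333). Cells with H2-Ab1 and no H2-Aa numbered 28, 19, 22 and 17, and those with H2-Aa and no H2-Ab1 2, 4, 1 and 4. Where both were present, H2-Aa lay below H2-Ab1, with median log2 ratios of −0.81, −0.39, −0.82 and −0.76. The I-E beta chain H2-Eb1 was held by 95.1 and 89.7% of control cells with H2-Ab1, compared with 62.9 and 63.2% of such HFD cells. Among all cells its share was itself 90.3, 78, 30.8 and 38% in the 4 sets. The phi coefficient between holding H2-Ab1 and holding H2-Eb1 was 0.443, 0.485, 0.55 and 0.434, and so overlapped between the diets. All 3 chains were found in 58.1, 51.6, 12.1 and 18.5% of cells.

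The editor H2-DM was the part most often incomplete. Both of its chains were held by 44.1, 27.5, 5.49 and 9.78% of cells, a difference of −28.1 points with a spread of 8.58 (exact two-sided permutation p = 0.333). H2-DMa was present without H2-DMb1 in 28, 33, 18 and 19 cells, and H2-DMb1 without H2-DMa in 11, 7, 6 and 6. Of the cells with both I-A chains, 31 of 54 and 24 of 49 control cells (57.4 and 49%) also had both H2-DM chains, compared with 3 of 13 and 4 of 21 HFD cells (23.1 and 19%). In each set this was above the share among all cells, which was also lower on the HFD. H2-DM was found without any chain in 2 of 80, 4 of 65, 6 of 29 and 6 of 34 cells with H2-DM. That part was larger in both HFD sets, where fewer cells held any chain. H2-DMb1 has a near copy next to it, H2-DMb2, to which reads can be assigned in its place; H2-DMb2 was held by 2, 2, 1 and 0 cells. The GENCODE model of H2-DMa overlaps Brd2 and other transcripts, and whether the counting used strand is not stated. Every H2-DMa share and level carries that doubt, and the H2-DMa cells without any other member are the least certain.

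Across the cells of a set, the 6 levels rose and fell together to different degrees. Spearman's rho of log2(TPM + 1) averaged 0.721, 0.718, 0.623 and 0.660 over the 6 pairs among the chains and Cd74. It averaged 0.361, 0.492, 0.372 and 0.349 over the 8 pairs of an H2-DM chain with a chain or Cd74, and was 0.206, 0.239, 0.161 and 0.296 between H2-DMa and H2-DMb1. In each set the H2-DM chains' rho with each other was thus below the mean of those 8 pairs. All 15 pairs were found together in more cells than the product of their shares in each of the 4 sets. How many pairs of other genes do so was not counted, and some margins were small. In control 1 H2-Ab1 and Cd74 met in 87.1% of cells against a product of 86.3%, and H2-Ab1 and H2-DMb1 in 50.5% against 49.3%. The phi coefficient of being held averaged 0.257, 0.341, 0.41 and 0.369 over the 15 pairs. These correlations describe 91 to 93 cells of 1 set each, which share a set, a fixed TPM total and many values at 0.

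**Figure D5:**
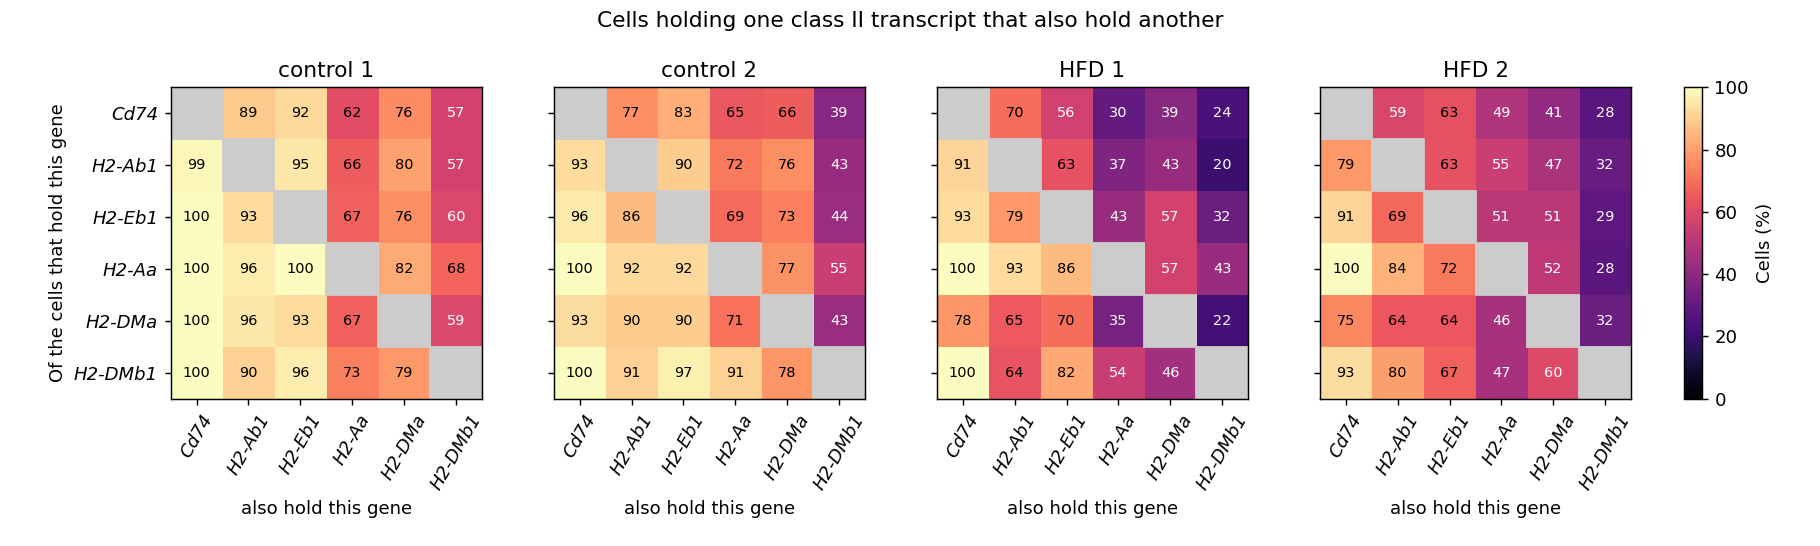
Of the cells of a set that held the gene in the row, the percentage that also held the gene in the column. The Cd74 column is the brightest in every set, reaching 100% in the H2-Aa row, and the H2-DMb1 column is the darkest (57.1 and 39% of control cells with Cd74, 23.9 and 27.5% of HFD cells with Cd74). Each percentage also depends on the share of all cells that held the column gene.

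The 5 H2 members lie within 197.1 kb of chromosome 17 (GRCm38, GENCODE M21), in the order H2-DMa (34119541 to 34139101), H2-DMb1 (34153072 to 34160230), H2-Ab1 (34257689 to 34269419), H2-Aa (34282744 to 34287823) and H2-Eb1 (34305867 to 34316674), with H2-Aa alone on the minus strand. Cd74 lies on chromosome 18 (60803848 to 60812652), yet its levels went with the chains of chromosome 17 more closely than the chromosome 17 genes of H2-DM did. The H2-DM genes were also the least abundant members, and the part of low level in this difference was not tested. Neighbouring class II genes were detected in few cells or none. H2-Oa, a chain of the H2-DM inhibitor H2-O, was listed at 0 in every cell. H2-Ob, its partner, was held by 0, 2, 0 and 1 cells, H2-Eb2 by 2, 0, 2 and 1, and H2-Ea-ps, the I-E alpha gene that GENCODE marks as a polymorphic pseudogene, by 1 cell of HFD 2.

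Of 22 other genes of the class II pathway listed for this account (regulators, lysosomal proteases, H2-O and neighbours), 19 were found in the table by symbol and 14 passed the filter on low genes. The other 3 were H2-Ea, March1 and March8, and symbols of the March family are written as dates in the table, so those 2 were not assigned. By limma 0 of the 14 were called in either direction; 3 had an unadjusted p under 0.05, namely Ciita, Rfxap and Nfyb, as did 11.1% of all tested genes. Their median log2 fold change was 0.28, against 0.13 for all tested genes and −1.52 for the 6 members. Ciita, the co-activator of class II genes, stood at 14.9, 8.98, 5.28 and 5.44 TPM, so that both HFD sets lay below both control sets, with a log2 fold change of −0.99 (SE 0.36, limma adjusted p = 0.3). Rfxap, a subunit of the RFX complex that binds the X box, stood at 2.98, 1.34, 8.76 and 2.95 TPM (1.02, SE 0.47, limma adjusted p = 0.43). Nfyb, a subunit of the NF-Y complex that binds the Y box, stood at 13.6, 16.5, 26.3 and 21.3 TPM (0.63, SE 0.29, limma adjusted p = 0.43). Ctss, a protease that degrades Cd74, stood at 39.9, 39.4, 47.4 and 65.5 TPM (0.48, SE 0.26, limma adjusted p = 0.501), and Ifi30, a lysosomal thiol reductase, at 202.1, 231.7, 277.6 and 282.7 TPM (0.37, SE 0.26, limma adjusted p = 0.613).

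The genes whose cell-to-cell pattern was most like the mean of the 6 were ranked among 10306 genes held by at least 10% of cells in every set, by Spearman's rho averaged over the 4 sets. They were 2210407C18Rik (0.404), Ceacam10 (0.396), Psmb8 (0.367), H2-D1 (0.317), H2-K1 (0.310), Psmb9 (0.302), AW112010 (0.296), Cd177 (0.288), Tap1 (0.282) and Ciita (0.279), where the median gene had −0.014 and the 99th percentile was 0.128. Psmb8 and Psmb9 are immunoproteasome subunits, Tap1 is a peptide transporter, and H2-D1 and H2-K1 are classical class I heavy chains. The members themselves reached 0.536 (H2-DMb1) to 0.881 (Cd74) with a mean of which each is a part. Tap1 averaged 21.9, 20.99, 16.1 and 14.3 TPM, with both HFD sets below both control sets, as for Ciita. Ceacam10 was held by 51.6 and 47.3% of control cells and 35.2 and 30.4% of HFD cells, while its mean levels overlapped. None of the 10 was called between the diets by limma (adjusted p = 0.3 to 0.984). H2-K1 averaged 359.3, 463.3, 382.6 and 399.9 TPM and Psmb8 146.2, 144.5, 99.6 and 169.2 TPM, so the HFD sets lay between the control sets for H2-K1 and on both sides of them for Psmb8.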

How the data were processed

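The authors deposited 1 table of TPM values for 375 cells. Bowtie2, RSEM and the mouse build mm10 are named in the submitters' processing notes; for versions, annotation and strand setting, nothing is given in the sources used here. Cells summed to 999999.2 to 1000000.6 TPM, so read depth is unknown; no 2 cells had identical values.

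Per set, 1, 3, 2 and 2 cells had under 2000 genes above TPM 0 and were not used. The set was the replicate (n = 2 per diet). limma 3.58.1 with a trend (R 4.3.3) was fitted to log2(set mean TPM + 1) over genes averaging 1 TPM or above, as a two-sided test with p-values adjusted by Benjamini-Hochberg, and was tested on simulated data. Fold changes on that scale understate low genes. Per-cell measures were compared with the pooled SD between sets and an exact permutation of the 4 sets (scipy 1.17.1). Intervals are 95% Clopper-Pearson and cover counting error only.

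The named genes were the 6 members, listed pathway genes by counts, with values for Ciita, the class II neighbours, Ifi30 and Ctss, and the 10 genes closest to the members' mean; Rfxap and Nfyb were named after their values were seen. The members and lists were chosen with earlier results of these data known. Alternatives changed the pseudocount, filters, scaling, logs, cells, level counted as held, block and sets.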

Additional observations from a re-analysis of the deposited data

How the results depend on the processing

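The number of class II members called lower, 6 of 6, was 0 with no filter on low genes, with Rn45s left out of the total, with limma without a trend, with no minimum of genes per cell, without cells with Paneth or goblet markers, with the interquartile range of genes per cell, and without cells with Paneth, goblet or immune markers (chosen after seeing the data). It was 1 without cells with any immune marker and from 1 to 6 with 1 set left out. It remained 6 in the other settings, among them median-ratio scaling and, added after seeing the data, cell-wise logs with Rn45s left out. All 6 had an unadjusted limma p under 0.05 in every setting, where 5.2 to 21.2% of all tested genes did. With no filter 0 of 19092 genes were called, and 1398 had an unadjusted p under 0.05. With the set number as a replicate block, 635 genes were called in place of 59, and the members' limma adjusted p ran from 3.28e-06 to 0.000452. The labels do not say that the numbers pair the sets. Deviations of same-numbered sets had a correlation of 0.233, and with 2 sets per diet this value cannot decide whether the numbers pair them. The cause of these changes in the calls was not tested. Holding a transcript at 10 TPM or more moved the difference in the share of complete cells to −20.08 points, of empty cells to 37.73 points, and in the other 5 members of Cd74 cells to −0.894. The interquartile range of genes per cell moved that last value to −0.842 and the share with both I-A chains to −31.09 points. The mean correlation over 15 pairs was 0.497 by Spearman and 0.345 as a phi coefficient. No per-cell difference changed sign. The replicate block left every per-cell difference at its value, since it averages the same 4 numbers.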
